A study of Mus musculus with 2 samples.

Results

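The S100 genes S100a4, S100a6, S100a10 and S100a11 and the galectin genes Lgals1 and Lgals3 were followed in mouse embryonic stem (ES) cells grown in suspension with and without doxycycline (dox). These 6 genes were picked by name out of the 14261 rows of the deposited expression table. They were chosen with the values of both libraries known, so their difference between the libraries is a description and supports nothing by itself. RNA-seq was made from 1 culture without dox and 1 culture with dox, both labelled 36 h. Both held the same cells, labelled TRE-ESC, in N2B27 medium with 2i, which is a pair of kinase inhibitors, and the cytokine LIF, in dishes of low adsorption. The agent, none or dox, was the only labelled difference between them. Dox commonly serves to turn on transgenes under tetracycline control. By its title the series is about ES cells that resist the differentiation c-Jun induces when they float in suspension; c-Jun is the protein of the gene Jun. The sources used here do not describe the construct, the clones or any pooling of cultures.

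S100 proteins are small calcium-binding proteins with a pair of EF-hand loops. They work mostly as dimers that, on binding calcium, expose a surface and grip a partner protein, often an annexin or a cytoskeletal protein. S100A10 is the exception, since it does not bind calcium and stays in the open form, in which it holds annexin A2. Galectins are lectins without a secretion signal that bind beta-galactosides on glycoproteins such as integrins and laminins. Galectin-1, from Lgals1, forms dimers, whereas galectin-3, from Lgals3, has a proline- and glycine-rich tail through which it forms larger assemblies. In tissues these genes are best known from epithelia, fibroblasts, macrophages and endothelium.

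Values are whole numbers on a normalized count scale, with quartiles of 14, 62 and 184 in either library. Sequencing depth is therefore unknown, and no counting interval is given. With 1 library per group there are no replicates, so no test was possible and the spread between cultures is unknown. A response to dox and a chance difference between 2 libraries cannot be told apart. A ratio is the value with dox plus 10 over the value without dox plus 10, which understates the difference of low genes, and its log2 is given as the log2 ratio. Genes were compared if at least 1 of their values was 50 or more, called the floor here, which 8547 genes reached. Jun itself stood at 55 without dox and 3821 with dox. Of 13 ES cell markers 9 were at least 2-fold lower with dox, among them Nanog at 2508 and 623, against 5.49% of all genes compared. Epcam was higher, at 228 and 520, and Pou5f1 stood at 3230 and 3572. In bulk RNA fewer cells of a type and less RNA per cell cannot be told apart.

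The promoters of 4 of the 6 genes were found in the RefSeq table of the build GRCm38.p6 and are shown as a description. Whether c-Jun acts on any of these genes was not tested. Each line gives the 250 bases before the annotated start, on the plus strand, which is the gene's own strand. Capitals mark letters that match a searched motif.
S100a4: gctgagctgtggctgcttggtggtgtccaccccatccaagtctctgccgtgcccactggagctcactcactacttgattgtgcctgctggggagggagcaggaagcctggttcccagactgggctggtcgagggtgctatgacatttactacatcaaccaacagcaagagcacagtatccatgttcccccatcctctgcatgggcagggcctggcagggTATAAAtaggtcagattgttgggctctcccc
S100a6: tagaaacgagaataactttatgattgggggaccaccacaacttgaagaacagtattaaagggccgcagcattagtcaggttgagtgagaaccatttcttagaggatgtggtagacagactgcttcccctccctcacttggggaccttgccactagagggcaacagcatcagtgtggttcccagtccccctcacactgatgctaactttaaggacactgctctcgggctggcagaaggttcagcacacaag
S100a11: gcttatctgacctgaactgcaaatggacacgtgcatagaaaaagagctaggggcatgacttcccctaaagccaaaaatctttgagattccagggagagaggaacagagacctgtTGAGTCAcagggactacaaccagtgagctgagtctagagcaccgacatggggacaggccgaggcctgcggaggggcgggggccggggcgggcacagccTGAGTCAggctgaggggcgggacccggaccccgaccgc
Lgals3: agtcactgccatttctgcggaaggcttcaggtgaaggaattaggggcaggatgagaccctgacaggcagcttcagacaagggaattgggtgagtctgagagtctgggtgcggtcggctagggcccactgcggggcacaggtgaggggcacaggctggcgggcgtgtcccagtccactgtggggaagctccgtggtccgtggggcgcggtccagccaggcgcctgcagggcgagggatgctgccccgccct

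These stretches lie at chr3:90603520-90603769 for S100a4, chr3:90612644-90612893 for S100a6, chr3:93520246-93520495 for S100a11 and chr14:47373610-47373859 for Lgals3. The motifs searched on both strands were TGANTCA, the letters bound by AP-1, of which c-Jun is a subunit, TGACGTCA, the cAMP response element, GGAATG, known from TEAD factors, and TATAAA, the TATA box. TGANTCA reads the same on both strands and was counted once per place. S100a11 held TGAGTCA at 2 places, beginning 136 and 38 bases before its start. Of all 32851 windows in the table, which span 250 bases before to 50 after a start, 7.81% held TGANTCA at least once and 0.46% at 2 or more places. Among the 8561 windows of genes at or above the floor these shares were 4.60% and 0.21%. The windows of S100a4, S100a6 and Lgals3 did not hold these letters, and none of the 4 held TGACGTCA or GGAATG. S100a4 had TATAAA beginning 31 bases before its start, a motif found in 13.6% of all windows. A match of letters is a description and not a bound site. For Lgals3 the start in RefSeq lies inside the gene's span in GENCODE M21, which begins farther upstream, so its window is not the region before the first annotated base there.

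All 6 values were larger with dox, but S100a4 was at the bottom of the table in both libraries. The floor was reached by 5 members, and 5 of 5 stood at least 2-fold higher with dox, 0 lower. Over all 8547 genes 9.23% were that much higher and 5.49% that much lower. The median log2 ratio of the 5 members was 2.50, against -0.08 over all genes at or above the floor. At 4-fold, 4 of the 5 were higher and 0 lower, against 3.11% and 0.644% of all genes. Because the same contrast chose the members, nothing is read from these counts. S100a6 and Lgals3 reached the floor only through the library with dox.

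**Figure D1:**
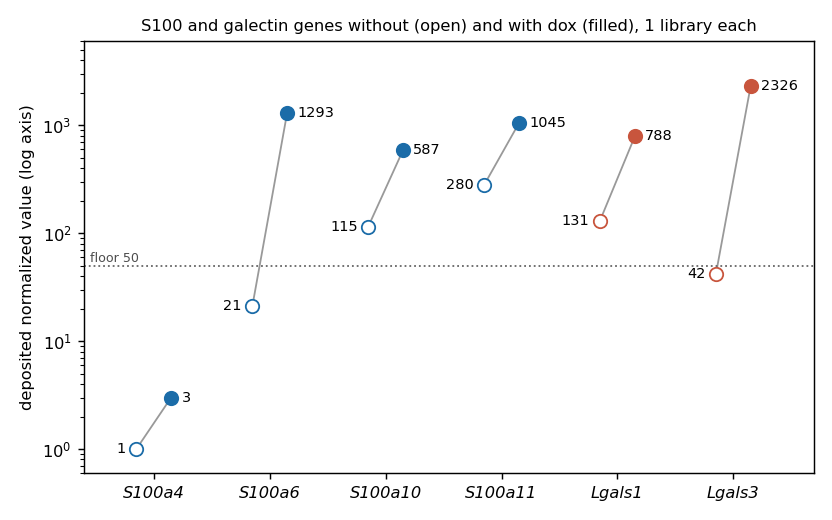
Deposited normalized value of each gene (log axis) without dox (open points) and with dox (filled points), 1 library each, with S100 genes in blue and galectin genes in red; the dotted line is the floor of 50. S100a6 and Lgals3 start below the floor and end highest, S100a11 starts highest, and S100a4 stays at 1 and 3.

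S100a6, or calcyclin, is an S100 protein common in proliferating and epithelial cells. It stood at 21 without dox and 1293 with dox, 42.0-fold higher, a log2 ratio of 5.39. Its place in the table moved from rank 9881 to rank 264 of the 14261 rows. By log2 ratio it ranked 11 of the 8547 genes. S100a6 has 3 exons in its principal transcript and lies on the plus strand of chromosome 3, from 90612882 to 90624181 in GENCODE M21 on GRCm38. Starting from a value of 21, its log2 ratio depends on the pseudocount and was 5.88 with a pseudocount of 1 and 4.24 with 50.

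S100a10 encodes the annexin A2 ligand also called p11. It stood at 115 without dox and 587 with dox, 4.78-fold higher, a log2 ratio of 2.26. S100a11, or calgizzarin, binds annexin A1 and stood at 280 and 1045, 3.64-fold higher, a log2 ratio of 1.86. Unlike S100a6, both were well above the floor without dox, at percentiles 64.2 and 83.8 of all rows, and reached percentiles 93.6 and 97.2 with dox. Their log2 ratios ranked 226 and 305 among the 8547 genes. Both lie on the plus strand of chromosome 3 with 28.8 kb between them, S100a11 from 93520488 to 93526287 and S100a10 from 93555080 to 93564643.

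S100a4, also known as fibroblast-specific protein 1 and metastasin, stood at 1 without dox and 3 with dox. Both values are far below the floor, so no ratio is given, and 1113 rows of the table had no value above 3. S100a4 spans 90603771 to 90606045 on chromosome 3, and 6.84 kb separate it from S100a6. The lowest of the 6 genes with dox thus lies beside one of the highest.

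Lgals3 stood at 42 without dox and 2326 with dox, 44.9-fold higher, a log2 ratio of 5.49. Its rank among all rows went from 8221 to 105, and with dox it had the largest value of the 6 genes. By log2 ratio it ranked 10 of 8547, next to S100a6. Its log2 ratio was 5.76 with a pseudocount of 1 and 4.69 with 50. Lgals1 stood at 131 and 788, 5.66-fold higher, a log2 ratio of 2.50 and the rank 181. The galectins thus differed among themselves much as the S100 genes did, with one member far above the other in ratio. Lgals3 has 6 exons and lies on chromosome 14 from 47367751 to 47386160, and Lgals1 has 4 exons and lies on chromosome 15 from 78926725 to 78930465, both on the plus strand.

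**Figure D2:**
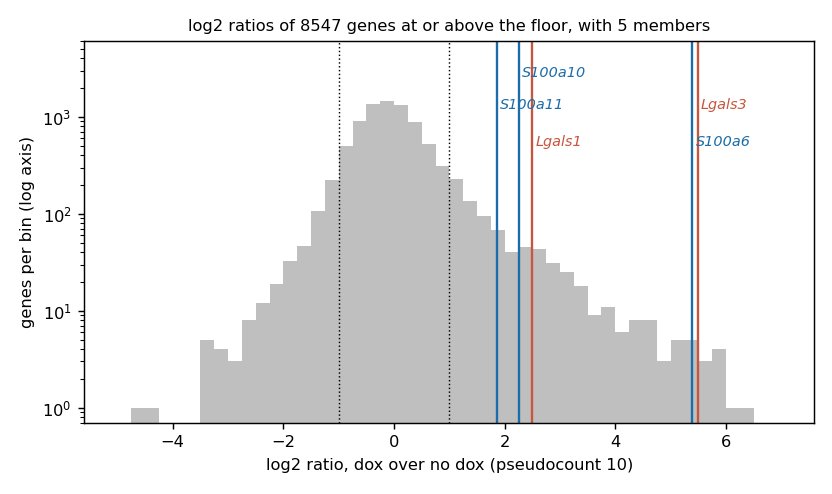
Number of genes (log axis) by log2 ratio of dox over no dox in bins of 0.25 for the 8547 genes at or above the floor; colored lines mark 5 members and dotted lines 2-fold. S100a11, S100a10 and Lgals1 lie between 1.86 and 2.50, and S100a6 and Lgals3 at 5.39 and 5.49, in the sparse right end.

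The order of the levels changed between the libraries. To set genes side by side, each value was divided by the length of the principal transcript in kb. Without dox S100a11 was highest at 548 per kb, followed by S100a10 at 168 and Lgals1 at 164, which were nearly equal, then Lgals3 at 29.6 and S100a6 at 28.7. With dox S100a11 was still highest at 2045 per kb, but S100a6, at 1769, and Lgals3, at 1639, came next. Lgals1 at 985 per kb and S100a10 at 857 followed, and S100a4 was lowest in both at 2.01 and 6.02. No replicate spread exists to say which neighbours in this order differ. The summed value of the 6 genes was 590 without dox and 6042 with dox, a ratio of 10.2. Lgals3 and S100a6 made up 10.7% of that sum without dox and 59.9% with dox.

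All 6 transcripts are short, with a longest annotated form between 498 and 1419 nt, against a median of 3566 nt over genes at or above the floor. Short genes as a class lay on the lower side in this comparison. Of 830 genes at or above the floor with a longest transcript of up to 1500 nt, 5.42% were 2-fold or more higher with dox and 11.4% lower by as much, and their median log2 ratio was -0.39. The members were chosen with this contrast known, so nothing is read from their being higher than genes of their length. A smooth trend of the log2 ratio on length over all annotated genes ran from -0.47 to -0.33 at the lengths of the 5 members. Removing that trend therefore makes their log2 ratios larger, and a part of length in their values was not tested.

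Sequence shared with other genes was sought by BLAST, at 90% identity or more over at least 75 nt. S100a6, S100a10, Lgals1 and Lgals3 matched no transcript of another gene. S100a11 matched transcripts of 5 other genes, among them its pseudogene S100a11-ps at 93.7% over 303 nt and Gm12854 at 99.0% over 297 nt, and none of the 5 had a row in the table. Reads could be split between these copies, so its value is uncertain. S100a4 shared 302 nt at 100% with Gm42674, an overlapping gene model on the same strand that also had no row, which makes its value uncertain as well.

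Many other genes of both families had no row, and why is unknown, since genes at 0 in both libraries can have rows. Of 12 other S100 genes looked for, 4 had a row, and 2 reached the floor. S100a16, a broadly expressed S100 gene, stood at 3 and 65, 5.77-fold higher with dox, whereas S100a13, which takes part in the release of fibroblast growth factor 1, stood at 50 and 32. S100a1 stood at 7 and 13 and S100a7a at 0 and 3. Of 9 other galectin genes or galectin-related genes, 4 had a row, and 2 reached the floor. Lgals8, which encodes a tandem-repeat galectin that binds integrins, stood at 14 and 82, 3.83-fold higher with dox. Lgalsl, a galectin-related gene whose product lacks lectin activity, stood at 91 and 84, while Lgals9 stood at 12 and 8 and Lgals4 at 5 and 3. S100a16 and Lgals8 both reached the floor only through the library with dox. S100a13, at exactly 50, reached it only through the library without dox, so it could not be called higher. So the members' direction was not that of every relative. At or above the floor, 1 of 2 S100 relatives and 1 of 2 galectin relatives were at least 2-fold higher, and the other of each pair was within 2-fold. Over all genes compared 9.23% were that much higher and 5.49% that much lower. No rate is read from so few genes.

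**Figure D3:**
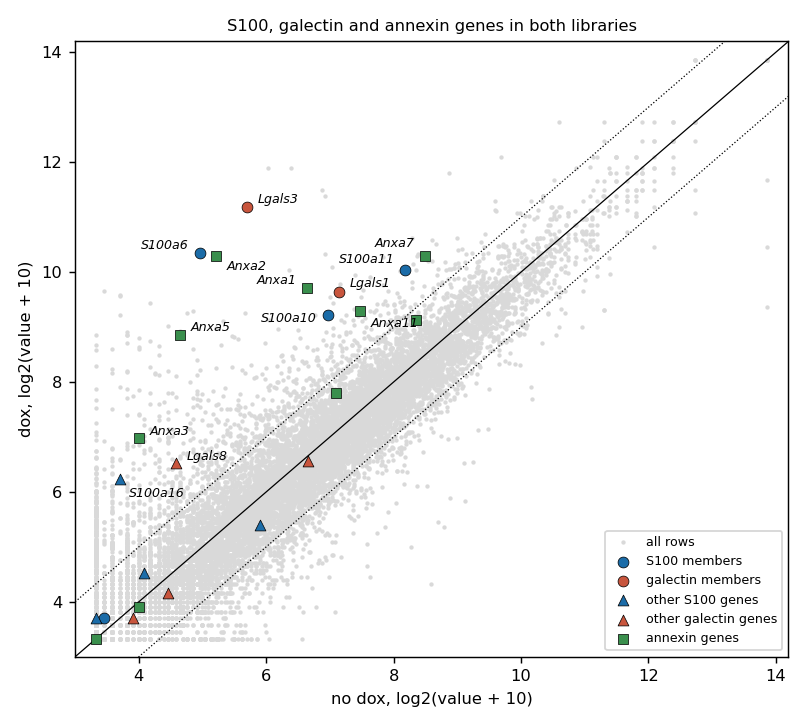
Value of each gene with dox against that without dox, both as log2(value + 10), for all rows (grey), the 6 genes (circles), other S100 and galectin genes (triangles) and annexin genes (squares); the solid line is equality and dotted lines are 2-fold. Among the marked genes Lgals3, S100a6 and Anxa2 have the largest log2 ratios.

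Annexins are the calcium-dependent membrane-binding proteins that S100 dimers tie together. Of 12 annexin genes 10 had a row and 8 reached the floor. Of these, 6 were at least 2-fold higher and 0 lower, against 9.23% and 5.49% of all genes compared. The median log2 ratio of the 8 was 2.40. Anxa2, Anxa3 and Anxa5, 3 of the 6, reached the floor only through the library with dox, so they had to differ. Anxa2, the partner of S100A10, stood at 27 without dox and 1249 with dox, 34.0-fold higher. Anxa1, the partner of S100A11, stood at 90 and 828, 8.38-fold higher, and Anxa11, a partner of S100A6, at 168 and 619, 3.53-fold higher. In each of these pairs both genes had larger values with dox, and Anxa2 had a larger ratio than S100a10. Without dox S100a10 had 115 and Anxa2 27, and with dox 587 and 1249. Outside these pairs Anxa7, at 352 and 1250, Anxa5, at 15 and 455, and Anxa3, at 6 and 116, were also at least 2-fold higher. Larger values with dox were therefore not particular to the pairs. Anxa4, at 127 and 212, and Anxa6, at 318 and 551, were within 2-fold.

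Other known S100 partners gave no common direction. Of 16 such genes 12 had a row, and all 12 reached the floor. Among them 3 were at least 2-fold higher and 0 lower, against 9.23% and 5.49% of all genes compared. The median log2 ratio of the 12 was 0.01. Ahnak, the giant scaffold that binds the complex of S100A10 and annexin A2 at the membrane, stood at 457 and 3576, 7.68-fold higher. Myh9, the nonmuscle myosin heavy chain bound by S100A4, stood at 1292 and 2669, and Ppfibp1, which encodes liprin beta 1, another S100A4 partner, at 54 and 132. Cacybp and Sugt1, whose products bind S100A6 as annexin A11 does, were within 2-fold at 843 and 501 and at 429 and 300.

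The complex of S100A10 and annexin A2 is known as a plasminogen receptor on the cell surface. Of 13 genes of plasminogen activation and of proteases downstream, 12 had a row and 4 reached the floor. Plaur, the urokinase receptor gene, stood at 15 and 479, 19.6-fold higher with dox, and Mmp14, a membrane-bound metalloproteinase gene, at 32 and 129. Both reached the floor only through the library with dox. Eno1, which encodes an enolase that also binds plasminogen, was within 2-fold at 1985 and 1700. The activator genes themselves were under the floor, Plau at 0 and 18 and Plat at 5 and 2.

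Galectins bind many surface and matrix glycoproteins. Of 21 genes of glycoproteins known to bind galectins, all had a row and 19 reached the floor. Of the 19, 6 were at least 2-fold higher and 0 lower, against 9.23% and 5.49% of all genes compared. The median log2 ratio of the 19 was 0.28. Integrin genes, grouped after their values were seen, took 4 of the 6 places. Itgb1 stood at 818 and 4342, 5.26-fold higher, Itga6 at 303 and 1569, Itgav at 123 and 499 and Itga5 at 113 and 473. Itga3, another integrin gene, was within 2-fold at 93 and 73. Cd44, the hyaluronan receptor gene, stood at 4 and 68 and the receptor gene Tgfbr2 at 26 and 67, and both reached the floor only with dox. The lysosomal glycoprotein genes Lamp1, at 1294 and 1570, and Lamp2, at 394 and 523, were within 2-fold, as were the laminin genes Lamc1, at 2156 and 2672, Lama5, at 948 and 902, and Lama1, at 291 and 153. Lgals3bp, the galectin-3-binding protein gene, was listed at 0 and 4.

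The sugars that galectins bind are built by glycosyltransferases and mannosidases. Of 20 genes of N-glycan branching and sialylation 19 had a row and 13 reached the floor. Of the 13, 2 were at least 2-fold higher and 0 lower, against 9.23% and 5.49% of all genes compared. The median log2 ratio of the 13 was 0.69. The 2 were the mannosidase gene Man2a2, at 66 and 191, and the sialyltransferase gene St3gal2, at 130 and 289. With a pseudocount of 1, with the median of all genes set to 0 and with the length trend removed, 5 of the 13 were at least 2-fold higher. Below 2-fold on the main scale, Mgat1 stood at 43 and 92, Mgat4b at 63 and 130, B3gnt2 at 27 and 63, Man2a1 at 225 and 414 and B4galt5 at 188 and 309. Mgat5, whose branched N-glycans are preferred by galectin-3, stood at 112 and 130. St6gal1, whose alpha-2,6 sialic acid blocks galectin-1, was under the floor at 29 and 27.

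Other EF-hand proteins were set beside the S100 genes as further calcium binders. Of 40 such genes 36 had a row and 31 reached the floor. Of the 31, 7 were at least 2-fold higher and 0 lower, against 9.23% and 5.49% of all genes compared. The median log2 ratio of the 31 was 0.42. Capn2, Efhd1, Sri and Ncs1, 4 of the 7, reached the floor only through the library with dox. With a floor of 250 the count was 3 of 16, against 298 of all 3118 genes. Capn2, a calpain protease gene, had the largest ratio of the list, 33.3-fold, at 4 and 456. Sparc, a secreted matrix calcium binder, stood at 768 and 2219, Ehd1, an endosomal recycling gene, at 490 and 1119, and Efhd2 at 88 and 201. The calmodulin genes Calm2, at 969 and 877, and Calm3, at 550 and 502, were within 2-fold.

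**Figure D4:**
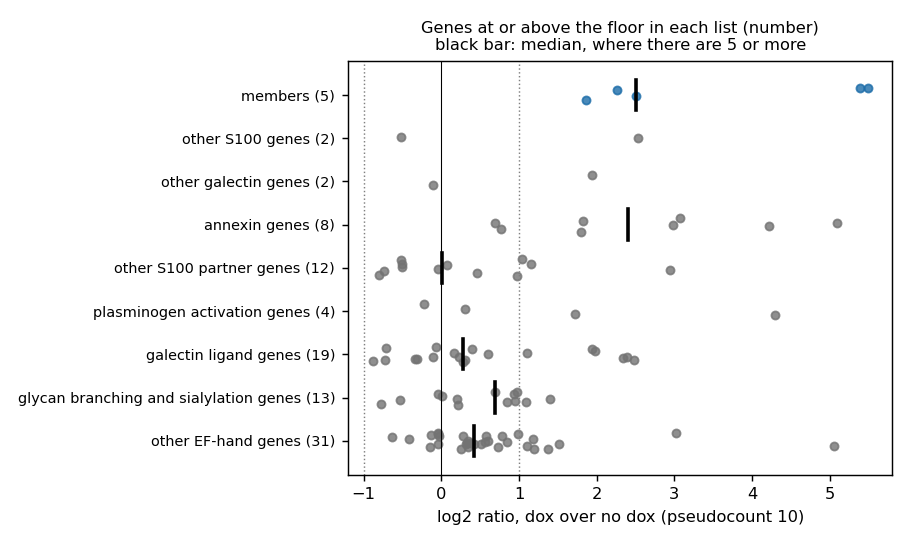
log2 ratio of dox over no dox (pseudocount 10) for each gene at or above the floor in 9 lists, with the number of genes in brackets and the median as a black bar where there were 5 or more; dotted lines are 2-fold. The medians of the 5 members (2.50) and the 8 annexin genes (2.40) lie above 2-fold, and those of the other 4 lists with a median lie between 0.01 and 0.69.

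The S100 genes lie in 2 groups on chromosome 3, S100a4 with S100a6 and S100a11 with S100a10, 2.90 Mb apart at their nearest, at either end of the epidermal differentiation complex. Of 23 other genes of that complex 5 had a row, and only Flg, the filaggrin gene, reached the floor, at 51 and 48. Hrnr stood at 36 and 20 and Tchh at 36 and 27. Genes within 250 kb of S100a6 included 8 other genes at or above the floor, of which S100a16 alone was at least 2-fold higher. Over all genes compared 9.23% were that much higher. Ilf2, at 501 and 428, Chtop, at 613 and 572, Snapin, at 94 and 102, and Ints3, at 408 and 453, were close to equal in both. Slc27a3, at 106 and 54, and Gatad2b, at 69 and 78, were also within 2-fold. S100a13, at 50 and 32, was within 2-fold as well, and S100a1 and S100a7a were under the floor. Apart from S100a16, the genes compared near S100a6 were thus within 2-fold, and S100a4, the nearest of all, was not above 3.

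Around Lgals3, 6 other genes reached the floor. Its closest neighbour, Dlgap5, a mitotic spindle gene 1.62 kb away on the other strand, stood at 295 and 216. Atg14, an autophagy gene, was 2.23-fold lower at 220 and 93, and Wdhd1, at 421 and 347, Socs4, at 152 and 185, Mapk1ip1l, at 595 and 855, and Fbxo34, at 71 and 124, were within 2-fold. Around Lgals1, 11 genes reached the floor and 2 were at least 2-fold higher. Micall1, a gene of endosomal recycling 178 kb away, stood at 4 and 410, and Card10, a scaffold gene of NF-kB signalling 124 kb away, at 9 and 278. Both differed by more than Lgals1 itself, at 30-fold and 15.2-fold. The genes between them and Lgals1 were within 2-fold, among them Nol12, 4.47 kb away, at 108 and 56, Sh3bp1 at 279 and 218, Triobp at 175 and 332, Gga1 at 207 and 171, H1f0 at 100 and 124, Gcat at 408 and 266, Ankrd54 at 53 and 57 and Eif3l at 1418 and 1138. Polr2f, farther out, stood at 179 and 225. Around all 6 members together, 27 genes that are not members reached the floor. Of these 4 were at least 2-fold higher and 1 lower, against 9.23% and 5.49% of all genes compared. The median log2 ratio of the 27 was 0.09.

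**Figure D5:**
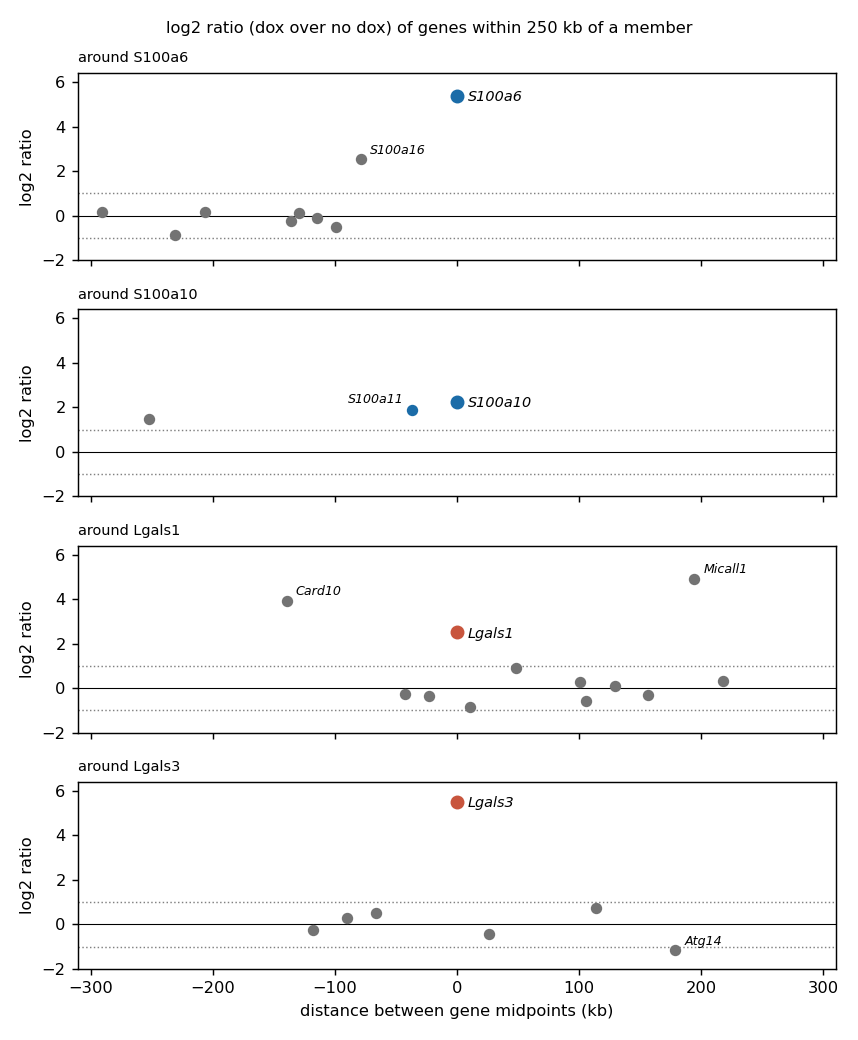
log2 ratio of dox over no dox against the distance between gene midpoints in kb, for genes at or above the floor around S100a6, S100a10, Lgals1 and Lgals3; colored points are the members and grey points other genes, named where past 2-fold (dotted lines) unless they have a clone-style symbol. Apart from S100a16, Card10, Micall1, 1 clone-style gene near S100a10 and Atg14, the neighbours lie within 2-fold.

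For each member the 2 genes nearest to it in log2(value + 10) of both libraries were taken, a likeness over 2 libraries only. Genes with clone-style symbols or symbols turned into dates were left out of this search. Anxa2, at 27 and 1249, and Tgm2, a transglutaminase gene with 16 and 1491, were nearest to S100a6, at distances of 0.26 and 0.33. S100a10 was nearest to the phosphatase gene Dusp1, at 113 and 610, and the receptor gene Notch3, at 99 and 586. S100a11 had Akap2, at 265 and 1023, and the vinculin gene Vcl, at 306 and 1118, next to it. Lgals1 had the major vault protein gene Mvp, at 133 and 873, and the noncoding Neat1, at 118 and 736. Among the genes searched Lgals3 had no close counterpart, and the nearest were Jun at a distance of 0.78 and Peg10, at 74 and 3821, at 0.99.

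Since S100a4 marks fibroblasts and galectin-3 was first known as the macrophage antigen Mac-2, markers of other cells were read beside these genes. Of 18 fibroblast and feeder markers all had a row, 1 reached the floor, and their summed value was 312 without dox and 270 with dox. Dcn, Lum, Fap, Mmp3, Lox and Prrx1 were at 0 in both libraries, and Col1a1 stood at 2 and 3. Col3a1 stood at 2 and 39, Col1a2 at 8 and 19 and Tagln at 0 and 7. The largest value was that of Fbln1 at 227 and 133, and without it, a choice made after seeing the data, the sum was 85 and 137. Of 17 macrophage and blood markers 6 had a row, with a summed value of 404 and 545. Lyz2 was at 0 in both, Ptprc stood at 0 and 19, and Csf1r, at 1 and 111, and Cd68, at 19 and 96, were higher with dox. Laptm5, at 376 and 316, was the largest value in that sum. The part of such cells in the value of Lgals3 was not tested.

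Of 10 endothelial markers 6 had a row, with a summed value of 392 and 332. Of the 3 that reached the floor 0 were past 2-fold, against 9.23% higher and 5.49% lower of all genes compared. Trophectoderm markers were higher in sum, 294 and 1171 over 11 rows, of which the keratin genes Krt18, at 10 and 395, and Krt7, at 0 and 374, made up most with dox, and Tead4, at 50 and 158, was also at least 2-fold higher. Under the floor, Cdx2 stood at 28 and 34, Hand1 at 0 and 17, Ascl2 at 4 and 23, Gata2 at 10 and 25 and Gata3 at 1 and 6. Tfap2c, at 159 and 113, and Eomes, under the floor at 32 and 18, had smaller values with dox. Primitive endoderm markers had a sum of 327 and 685 over 6 rows, with Col4a1 at 12 and 507 and Gata4 and Gata6 at no more than 8. Lama1, at 291 and 153, made up most of that sum without dox. Its value and that of Dab2, at 12 and 2, were smaller with dox. The part of cells with any of these markers in the values of the S100 and galectin genes was not tested.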

How the data were processed

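The 2 RNA-seq libraries of mouse ES cells, 1 without and 1 with dox, were analysed, grouped by agent. The tools were bcl2fastq, RSEM and Bowtie2 with the build mm10, per the submitters' processing notes; their versions, the annotation and the normalization were not given there. The deposited table was treated as a score, since its values look normalized and rounded by the authors: 75.5% of sorted positions were equal between libraries (tolerance 0). On such a scale the depth is not kept, so no count model was used. No gene is named from the 21 rows whose symbol had become a date.

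The log2 ratio used a pseudocount of 10 and a floor of 50 on the larger value, with calls at 2-fold. The members and lists were chosen with earlier results of these data known. Named were the 6 members, their S100 and galectin relatives, neighbours within 250 kb and the 2 nearest genes per member without clone-style symbols. In 15 further lists up to 4 genes were named, at least those past 2-fold with the largest values. Some genes that this rule takes are left out here. A few others were added after their values were seen, as were the genes at 0 among the markers. Medians of lists are given from 5 genes. Positions and transcript lengths came from GENCODE M21 on GRCm38, the assembly of mm10, with a length for 99.1% of the genes compared. The length trend was removed with lowess (fraction 0.3). Promoters came from RefSeq. Alternatives were pseudocounts of 1 and 50, no floor, a floor of 250, centring on the median, the length trend, a 4-fold threshold and ranks. Only the log2 ratio and the 2-fold calls were checked on simulated data, with 4-fold differences planted in genes well above the floor. The length trend, BLAST and promoter steps were not checked in that way. The software was BLAST 2.17.0, statsmodels 0.14.6, pandas 2.3.3, numpy 2.4.6 and matplotlib 3.10.9 under Python 3.11.15.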

Additional observations from a re-analysis of the deposited data

How the results depend on the processing

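Under every alternative run, the 5 members at or above the floor stayed at least 2-fold higher with dox (4 of 5 at a 4-fold threshold), and with no floor S100a4 was not past 2-fold. The log2 ratios ranged over the pseudocount, floor, centring and length alternatives from 4.69 to 5.82 for Lgals3, 4.24 to 5.88 for S100a6, 2.21 to 2.93 for Lgals1, 1.95 to 2.70 for S100a10 and 1.73 to 2.34 for S100a11. By percentile among all rows each of the 5 was also higher with dox. With a pseudocount of 50 the annexin median was 1.66, the EF-hand genes higher were 4, the glycan genes higher 1, and over all genes 498 were higher and 171 lower. With a pseudocount of 1, with centring and with the length trend removed, 5 glycan genes were higher. With the length trend removed 1 galectin ligand gene and 1 primitive endoderm marker were lower. A change of the floor also changes how many genes are compared. With no floor 4 of 10 plasminogen activation genes, 1 of 4 epidermal complex genes, 1 of 12 fibroblast markers and 5 of 11 trophectoderm markers were higher. In that setting 1 of 5 endothelial markers was lower, and of all 13632 genes 1255 were higher and 796 lower. With a floor of 250, 1 of 2 plasminogen activation genes, 1 of 3 glycan genes, 3 of 16 EF-hand genes and 0 of 1 macrophage markers were higher. Of all 3118 genes at that floor 298 were higher and 147 lower. At 4-fold 266 genes were higher and 55 lower. A longer promoter window was not run, since no genome was used here. No paired analysis was possible because there was 1 library per group. The depth of the libraries is unknown, so what it limits cannot be stated, and without replicates no difference can be set against the spread between cultures.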
